A study of Mus musculus with 38 samples.

Results

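Sperm small RNA was compared between 9 PRCT and 10 CTCT mice, out of 38 mice in the whole series. PRCT males were born to dams on a protein restricted diet with 8% protein, given from the discovery of the plug until weaning at 21 days, and then ate the control diet with 20% protein. CTCT males had the 20% diet before and after weaning. All were C57BL6/J males killed at 11 to 13 weeks of age, and each of the 19 came from a litter of its own, so that a mouse stood for 1 litter throughout. The groups were taken from the study's mouse list, which places mouse 47I2 in CTCT where the sample labels name its littermate 47I1. The comparison asks whether a low-protein diet that ended at weaning was still visible in the small RNA of adult sperm.

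A mature sperm cell is almost silent in transcription, and most of its small RNA is either left over from the testis or taken up in the epididymis. Fragments of cytosolic tRNA, mainly from the 5′ side, are a main component of sperm small RNA and are known to respond to paternal diet. microRNAs (miRNAs) silence messenger RNAs through a short seed near their 5′ end, and piRNAs guide PIWI proteins against transposons in the germ line. Sperm also carry mitochondria in the midpiece, which have their own genome, ribosomes and set of tRNAs. A mitochondrial transcript is cut into messenger and ribosomal RNAs by excision of the tRNAs that lie between them.

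The sequences of the RNAs that the results turn on are given first. Reads on mitochondrial tRNA were counted as 1 class, and the class was not divided among genes. In GENCODE vM21 (GRCm38, the same assembly as mm10) it holds 22 genes on chromosome M, 14 on the plus strand and 8 on the minus strand, between 59 and 75 bases long. Of these genes, 21 are no longer than 73 bases, the upper end of the insert length that the library protocol selected. Gene lengths leave out the CCA tail of the mature tRNA, so fewer full-length tRNAs may lie within that length. The shortest, the serine tRNA mt-Ts2, which lacks the D arm, lies at chrM:11613-11671 on the plus strand, and the longest, the leucine tRNA mt-Tl1, at chrM:2676-2750 on the plus strand. Their genes are shown to mark the size range that the class spans, with no part set in capitals.
mt-Ts2: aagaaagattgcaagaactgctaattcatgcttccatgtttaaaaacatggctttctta
mt-Tl1: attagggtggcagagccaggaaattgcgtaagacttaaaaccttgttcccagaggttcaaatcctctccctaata

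miRNAs were counted per hairpin, and the arm a read came from was not kept. RefSeq (GRCm38.p6) held an entry for 168 of the 192 hairpins tested. The mature sequences below belong to the abundant hairpins mir-148a (chr6:51269829-51269850, minus strand), mir-10a (chr11:96317186-96317208, plus strand), mir-21a (chr11:86584120-86584141, minus strand) and let-7g (chr9:106178846-106178867, plus strand), and to mir-881 (chrX:66801954-66801975, minus strand) of the testis. The last 3 belong to the hairpins with the smallest p-values among miRNAs, mir-16-1 (chr14:61631936-61631957, minus strand), mir-29b-1 (chr6:31063025-31063047, minus strand) and mir-451a (chr11:78073186-78073207, plus strand). Capitals mark the seed, bases 2 to 8, and the 8 seeds all differ.
miR-148a-3p: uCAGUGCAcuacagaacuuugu
miR-10a-5p: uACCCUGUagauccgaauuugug
miR-21a-5p: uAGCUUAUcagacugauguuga
let-7g-5p: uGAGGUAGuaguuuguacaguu
miR-881-3p: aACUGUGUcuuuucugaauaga
miR-16-5p: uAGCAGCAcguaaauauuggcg
miR-29b-3p: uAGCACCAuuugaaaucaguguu
miR-451a: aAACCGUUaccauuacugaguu
miR-16-5p and miR-29b-3p can each arise from 2 hairpins, so that the counts of mir-16-1 and mir-29b-1 may have been divided among copies.

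Libraries held 4465281 to 6706672 genome-matched reads in CTCT (median 6164421) and 5744388 to 7612603 in PRCT (median 6519785). All 81 pairs of mice within a group differed by far more than sampling noise, so each library was counted as a mouse of its own. The markers of sperm and testis were present, with a read in at least 17 of 19 mice for each of the 10 miRNAs, and their summed level ran from 42.8 to 1786 RPM (reads per 1000000 genome-matched reads) in CTCT (median 637) and from 376 to 1504 in PRCT (median 924). All 5 epithelial markers were detected as well, at a summed 38.9 to 1807 RPM in CTCT (median 526) and 132 to 1043 in PRCT (median 392). The 6 muscle markers, mostly mir-143, summed to 63.5 to 4243 (median 1549) and 387 to 3443 (median 1270). Their medians lay above those of the sperm and testis markers in both groups. The 6 blood cell markers summed to 5.73 to 91.3 (median 25.7) and 4.74 to 36.7 (median 22.7). The liver and the brain markers each stayed at or below 17.5 RPM in every mouse. The part of these other cell types in the results below was not tested. The sum of the classes minus the genome-matched total was 613236 reads in mouse 35F2 (CTCT) and −119111 reads in mouse 31A3 (PRCT). Class results between PRCT and CTCT are therefore also given without these mice where they depend on them.

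Mitochondrial tRNA was the class with the clearest difference. It made up 1.10 to 5.74% of genome-matched reads in CTCT mice (median 2.79%) and 3.47 to 8.53% in PRCT mice (median 5.86%). All 9 PRCT mice lay above the CTCT median, and the ranges of the groups overlapped. The means were 3.04 ± 1.51% (SD, n = 10) and 5.64 ± 1.51% (SD, n = 9), a ratio of 1.86 and a difference of 2.61 percentage points (95% interval 1.14 to 4.08; two-sided exact permutation test, P = 0.00194). Adjusted by the Benjamini-Hochberg method for the 26 classes tested, this exact permutation P became 0.0504, just above the threshold of 0.05. Each library pools the RNA of many cells, so fewer cells of a type and less RNA per cell cannot be told apart. Of the 26 classes, 2 had an unadjusted P under 0.05 by this test, 7.69% of those tested, and 0 had an adjusted P under 0.05.

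The unadjusted P stayed between 0.000576 and 0.00434 when any 1 of the 19 mice was left out of the exact permutation test. The adjusted P of the exact permutation test then ran from 0.0150 without 45L3 to 0.113 without 08G3. Mouse 08G3 had the highest PRCT share, 8.53%. The adjusted P fell under 0.05 without CTCT mice 07C3, 09H7, 45L3, 53M1 or 49K1 or without PRCT mice 23F4 or 31A3. It lay above 0.05 without any of the other 12 mice.

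The other mitochondrial classes behaved unequally. Mitochondrial rRNA, the RNA of the mitochondrial ribosome, made up 1.31 ± 0.600% in CTCT and 1.44 ± 0.553% in PRCT, a difference of 0.130 points (95% interval −0.433 to 0.693; exact permutation test, P = 0.627). The Rfam class of mitochondrial DNA, which took reads from the mitochondrial genome that earlier steps had not claimed, ran from 0.00540 to 0.143% in CTCT (median 0.0197%) and from 0.0171 to 0.0721% in PRCT (median 0.0317%). The highest CTCT value belonged to mouse 35F2, and 8 of 9 PRCT mice lay above the CTCT median. Over all 19 mice the means differed by 0.00366 points (P = 0.896 by the exact permutation test). Without 35F2 it was 0.0161 points, from 0.0180% to 0.0341% (95% interval 0.00439 to 0.0289; exact permutation test, P = 0.00646, adjusted P = 0.0517). Mouse 02A6 (CTCT) had the lowest share of mitochondrial tRNA, 1.10%, and the highest share of mitochondrial rRNA of the 19 mice, 2.41%. In this mouse 41.7% of the reads matched the genome, beside 52.1 to 59.3% in the other mice.

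**Figure D1:**
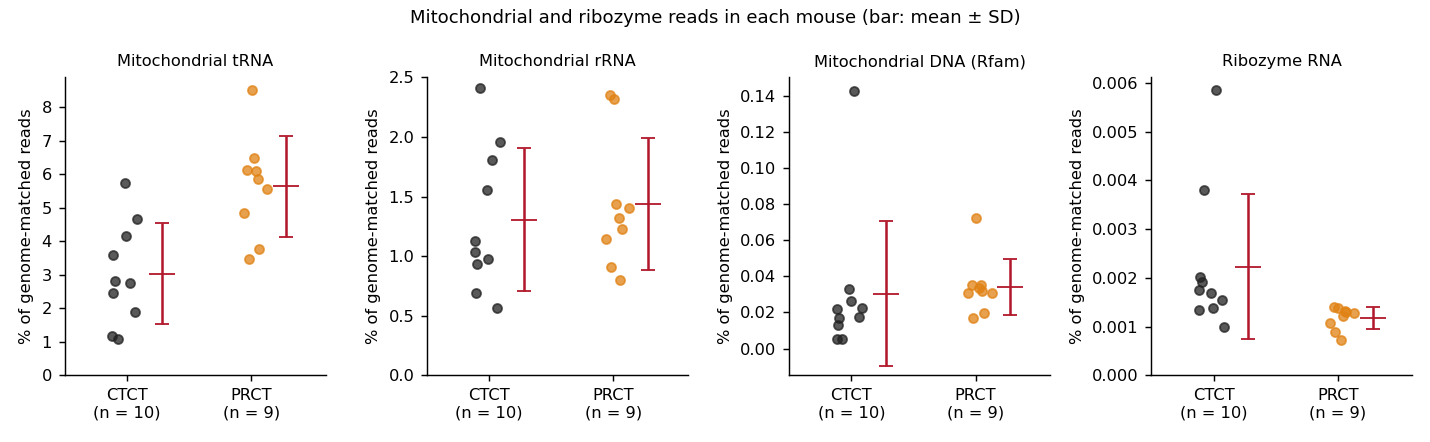
Percent of genome-matched reads in 4 classes for each mouse (points, CTCT black, PRCT orange), with mean ± SD (red bars, n = 10 and 9). Mitochondrial tRNA ran from 3.47 to 8.53% in PRCT and from 1.10 to 5.74% in CTCT, ribozyme RNA was higher and more spread in CTCT, and 1 CTCT mouse stood apart at 0.143% for mitochondrial DNA.

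Ribozyme RNA was the second class with an unadjusted P under 0.05 and lay in the opposite direction. The class holds the RNA subunits of RNase P, which trims the 5′ ends of tRNA precursors, and of RNase MRP, which acts on precursor rRNA, with their related copies, 22 genes in GENCODE vM21. It took 64 to 393 reads per mouse in CTCT and 51 to 100 in PRCT. As a percent of genome-matched reads these were 0.00100 to 0.00586% in CTCT (median 0.00172%) and 0.000729 to 0.00139% in PRCT (median 0.00127%). All 9 PRCT mice lay below the CTCT median. The mean was 0.00223 ± 0.00148% in CTCT and 0.00117 ± 0.000229% in PRCT, a difference of −0.00106 points (95% interval −0.00210 to −0.000178; exact permutation test, P = 0.00678, adjusted P = 0.0881). The 2 highest CTCT mice were 35F2 and 02A6. Leaving out 35F2 gave −0.000653 points (P = 0.00522 by the exact permutation test, adjusted P = 0.0517). Over all 19 ways of leaving out 1 mouse, the adjusted P of the exact permutation test ran from 0.00535 without 09H7 to 0.382 without 40H1, and was under 0.05 without CTCT mice 07C3, 09H7, 53M1 or 49K1.

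The largest classes showed no difference beyond the spread between mice. Small nucleolar RNA (snoRNA), which guides the modification of rRNA, took the most reads, 27.4 ± 12.5% in CTCT and 26.6 ± 11.0% in PRCT (difference −0.805 points, 95% interval −12.3 to 10.7; exact permutation test, P = 0.882). Cytosolic tRNA took 2.75 to 16.4% in CTCT (median 9.29%) and 4.77 to 24.6% in PRCT (median 11.6%), with means of 9.75 ± 4.31% and 12.02 ± 6.88% (difference 2.27 points, 95% interval −3.19 to 7.80; exact permutation test, P = 0.399). In mouse 31A3 the tRNA class held 352056 reads although its isoacceptors summed to 469889, and with that sum in every mouse the exact permutation test gave P = 0.347. piRNA took 1.52 to 20.5% in CTCT and 4.35 to 14.2% in PRCT, with means of 10.7 ± 5.44% and 9.71 ± 3.96% (difference −0.962 points, 95% interval −5.63 to 3.69; exact permutation test, P = 0.668). The Rfam class named DNA took 11.8 ± 5.75% and 12.9 ± 6.89% (difference 1.17 points, 95% interval −4.64 to 7.14; exact permutation test, P = 0.598). Unannotated reads took 11.9 ± 2.92% and 10.2 ± 1.56% (difference −1.69 points, 95% interval −3.99 to 0.465; exact permutation test, P = 0.134). miRNA of miRBase took 0.158 to 3.79% in CTCT and 0.424 to 2.73% in PRCT. Its means were 1.52 ± 1.10% and 1.38 ± 0.795% (difference −0.141 points, 95% interval −1.08 to 0.785, exact permutation test, P = 0.758). The intervals of snoRNA, tRNA and piRNA leave room for shifts of several percentage points either way.

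**Figure D2:**
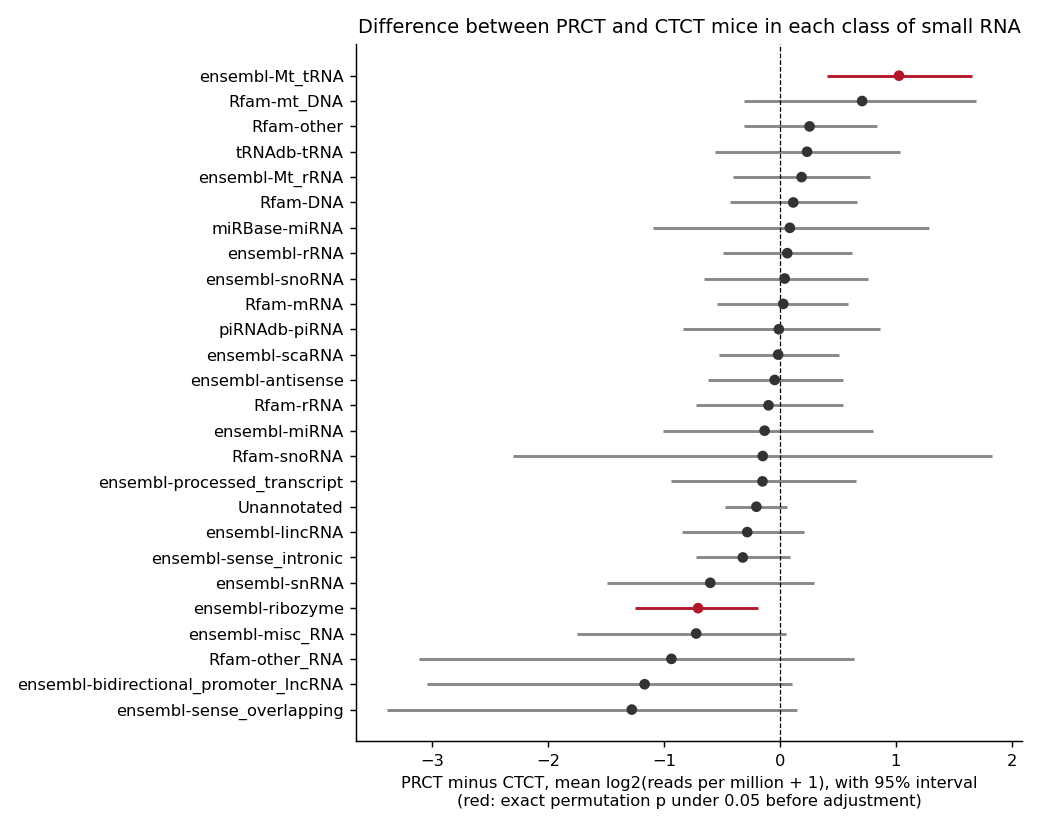
Difference between PRCT and CTCT in mean log2(RPM + 1) for each of the 26 classes tested (points), with 95% intervals from the exact permutation test (lines). The interval excluded 0 for mitochondrial tRNA (difference 1.03, interval 0.41 to 1.65) and for ribozyme RNA (difference −0.71, interval −1.25 to −0.19).

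Single miRNAs, piRNAs and tRNA rows were tested in 1 fit. A row was tested when at least 10 reads were counted in at least 9 of the 19 mice, which kept 4197 rows: 192 of 591 miRNA hairpins with a read, 3868 of 355261 piRNAs, 47 of 51 tRNA isoacceptors, 37 of 46 rows of 5′ ends, 29 of 46 of 3′ ends and 24 of 31 of CCA ends. The tested rows carried 99.4% of the miRNA reads and 61.4% of the piRNA reads. By edgeR's quasi-likelihood test with Benjamini-Hochberg adjustment, 0 of the 4197 rows had an adjusted P under 0.05, and the smallest adjusted P was 0.999. At an unadjusted P under 0.05 there were 91 rows, 2.17% of those tested, 49 higher and 42 lower in PRCT. DESeq2 with its own size factors also gave 0 rows with an adjusted P under 0.05 and 148 with an unadjusted one, of which 98 were higher, and TMM scaling gave 127, of which 84 were higher. limma on log2(RPM + 1) gave 0 and 134, of which 91 were higher. Of the 91 rows, 67 were also under 0.05 with TMM and 50 with DESeq2. Over all rows tested, 1711 had a higher and 2486 a lower fitted level in PRCT, with a median log2 fold change of −0.14, which moved to −0.05 with TMM scaling.

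**Figure D3:**
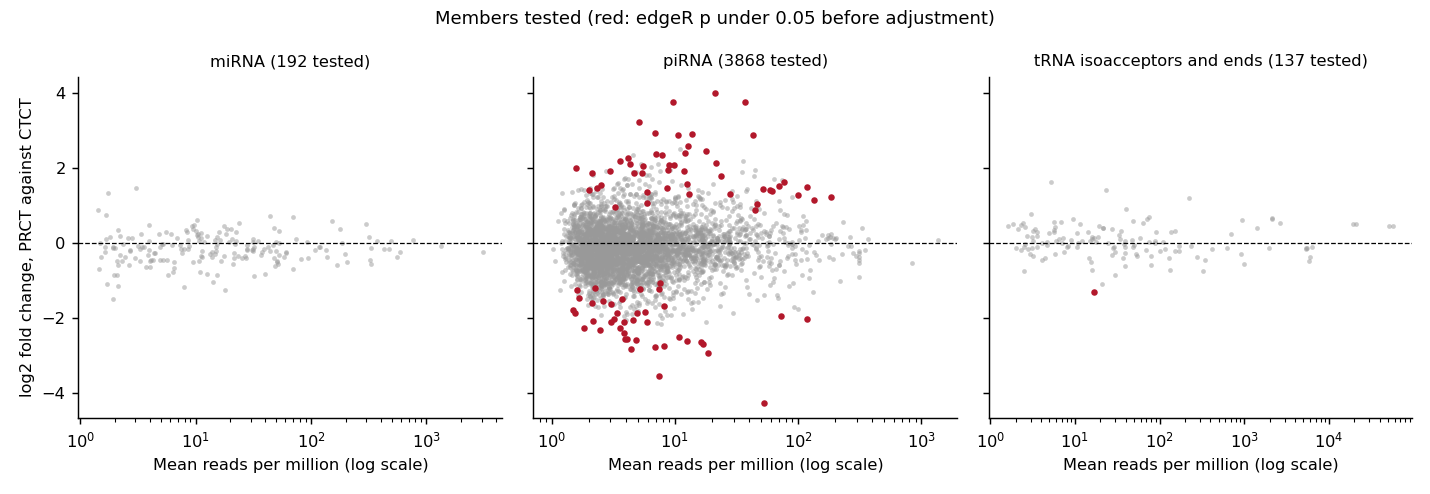
log2 fold change of PRCT against CTCT from edgeR for each row tested, against its mean RPM over 19 mice on a log scale, for 192 miRNAs, 3868 piRNAs and 137 rows of tRNA isoacceptors and ends. Red points have an unadjusted P under 0.05: 90 are piRNAs, 1 is the 5′ end of tRNA-Arg-CCG and none is a miRNA.

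No miRNA reached an unadjusted P under 0.05. Of the 192 hairpins, 66 were fitted higher and 126 lower in PRCT, with log2 fold changes between −1.49 and 1.46 and a median of −0.16, beside −0.14 over all rows. With TMM scaling the median was −0.04 and 3 hairpins had an unadjusted P under 0.05. The most abundant hairpin, mir-148a, ran from 162 to 8295 RPM in CTCT (median 3347) and from 526 to 6176 in PRCT (median 1889). Its groups overlapped almost entirely, with a log2 fold change of −0.23 (edgeR P = 0.673, adjusted P = 0.999).

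The next most abundant hairpins overlapped in the same way. mir-143, a miRNA of smooth muscle and other mesenchymal cells, had a mean of 1375 ± 1056 RPM in CTCT and 1309 ± 872 in PRCT. mir-3535 had 749 ± 326 and 786 ± 264. mir-10a, a miRNA of the Hox clusters, had 633 ± 446 and 534 ± 281, and mir-21a, found in many tissues, had 623 ± 506 and 484 ± 342. Their log2 fold changes lay between −0.36 and 0.07, with unadjusted P between 0.490 and 0.891 by edgeR. The spread between mice of 1 group, up to more than 10 times from lowest to highest, was wider than any of these differences.

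The 3 hairpins with the smallest P were all lower in level in PRCT. mir-16-1, of a cluster that restrains the cell cycle, had 1.08 to 65.9 RPM in CTCT (median 20.0) and 0 to 18.2 in PRCT (median 11.0). All 9 PRCT mice lay below the CTCT median, and the log2 fold change was −1.26 ± 0.65 (SE; edgeR P = 0.0639, adjusted P = 0.999). When the copies of each mature miRNA were summed, mir-16 had a log2 fold change of −0.49 (edgeR P = 0.356, adjusted P = 0.999). Summed in the same way, mir-29b had one of −1.30 (edgeR P = 0.0659, adjusted P = 0.999). mir-29b-1, of a family that targets collagen messages, had 0 to 10.1 RPM in CTCT (median 2.34) and 0 to 1.87 in PRCT (median 0.927; log2 fold change −1.49, edgeR P = 0.0714, adjusted P = 0.999). mir-451a, the main miRNA of red blood cells, had 0 to 44.4 RPM in CTCT (median 6.19) and 1.53 to 10.6 in PRCT (median 5.32; log2 fold change −1.18, edgeR P = 0.0727, adjusted P = 0.999). Without CTCT mouse 07C3 the unadjusted edgeR P of mir-16-1, mir-29b-1 and mir-451a were 0.0288, 0.0396 and 0.0171, and 1 or more of the 3 were also under 0.05 without 02A6, 09H7 or 39F5. Without 47I2, mir-16-1 had a log2 fold change of −0.97 (edgeR P = 0.150) and mir-451a one of −0.56 (edgeR P = 0.341). In that fit mir-29b-1 no longer passed the read filter and was not tested. With 47I1 in place of 47I2, as labelled, mir-451a had −0.58 (edgeR P = 0.307). The highest CTCT value of all 3 hairpins came from mouse 47I2, the mouse whose group differs between the mouse list and the labels. Mouse 47I2 also had the highest share of miRBase miRNA in CTCT, 3.79% of genome-matched reads in a range from 0.158%. It had the highest CTCT value of mir-148a, mir-143, mir-10a and mir-21a as well, but not of mir-3535. Its high values were thus not particular to these 3 hairpins. The part of the miRNA share in their differences was not tested.

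The miRNA families were described by their counts of tested members, none of which had an unadjusted P under 0.05. Over all 192 hairpins tested, 66 were higher and 126 lower (median log2 fold change −0.16). The let-7 family, regulators of developmental timing, had 7 members higher and 5 lower (median log2 fold change 0.05), and its most abundant hairpin let-7g had a mean of 480 ± 385 RPM in CTCT and 504 ± 342 in PRCT. The mir-34 and mir-449 family, needed for sperm formation, had 1 higher and 3 lower (median −0.09), with mir-34c at 363 ± 293 and 379 ± 229. The mir-10, mir-99/100 and mir-125 family had 2 higher and 6 lower (median −0.15). The mir-30 family had 1 higher and 5 lower (median −0.38), with mir-30a at 374 ± 295 and 275 ± 171. The mir-17-92 cluster and its paralogues had 4 higher and 3 lower (median 0.04), with mir-25 at 41.5 ± 18.7 and 54.4 ± 24.6. All 3 members of the mir-183 cluster were lower (median −0.25), and its most abundant hairpin, mmu-mir-182, stood at 64.9 ± 49.2 and 54.8 ± 32.9. The imprinted miRNAs of the Dlk1-Dio3 region had 4 higher and 6 lower (median −0.06), with mir-379 at 49.4 ± 40.2 and 50.7 ± 37.4.

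Groups that mark tissues are set beside all 192 hairpins tested, of which 126 were lower in PRCT. The median log2 fold change of these 192 was −0.16, and −0.04 with TMM scaling. Again no member of a group had an unadjusted P under 0.05 by edgeR. The X-linked miRNAs of the testis had 12 members higher and 4 lower (median log2 fold change 0.14). mir-881, the most abundant of them, had 14.9 to 561 RPM in CTCT (median 228) and 133 to 806 in PRCT (median 360), a log2 fold change of 0.51 (edgeR P = 0.298, adjusted P = 0.999). All 5 members of the epithelial mir-200 family were lower (median −0.49). Their most abundant member, mir-200c, had 239 ± 198 RPM in CTCT and 170 ± 107 in PRCT (edgeR P = 0.338, adjusted P = 0.999). The muscle miRNAs had 1 higher and 5 lower (median −0.38), the blood cell miRNAs 1 higher and 2 lower (median −0.78), with mir-223 at 8.35 ± 5.44 and 8.81 ± 5.50, and both tested rows of liver and brain miRNAs were lower (median −0.23), with mir-9-3 at 1.99 ± 1.97 and 1.87 ± 1.78. Of 6 sperm miRNAs linked to paternal stress, 3 were higher and 3 lower (median −0.22). Of those, mir-30a and both copies of mir-30c, are also counted in the mir-30 family.

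**Figure D4:**
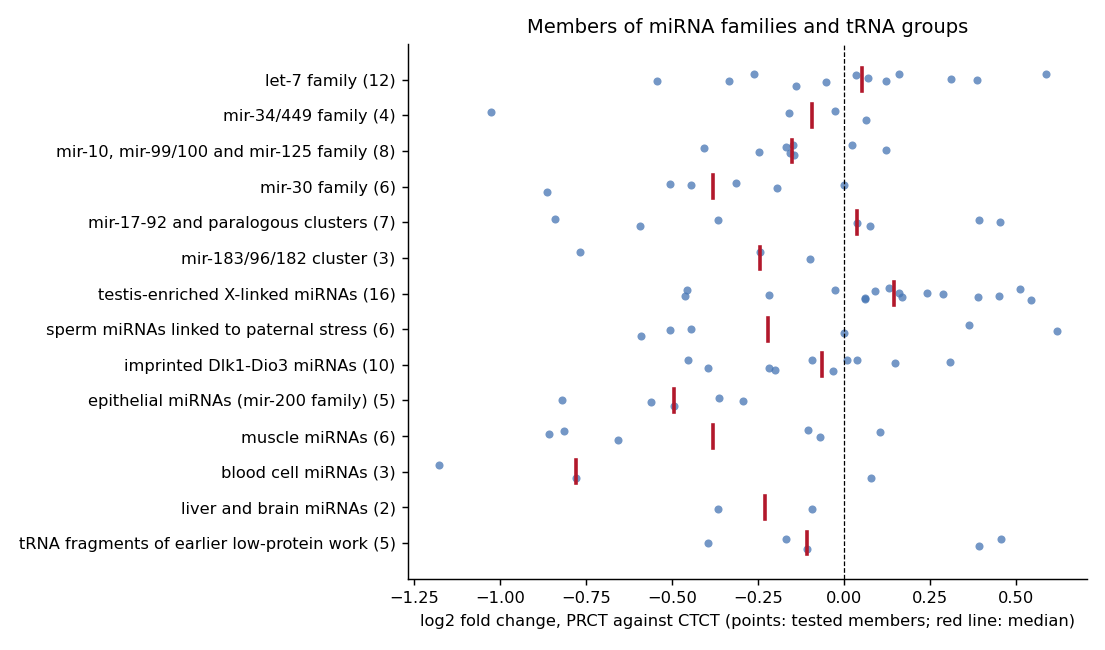
log2 fold change of PRCT against CTCT for each tested member (points) of 13 groups of miRNAs and 1 group of tRNA isoacceptors, with the number of members in brackets and the median as a red line. Medians lay between −0.78 for blood cell miRNAs and 0.14 for X-linked miRNAs of the testis, and no member had an unadjusted P under 0.05.

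piRNAs supplied 90 of the 91 rows with an unadjusted P under 0.05, 2.33% of the 3868 tested. By edgeR 49 of the 90 were higher and 41 lower, and none had an adjusted P under 0.05. The 3 with the smallest P differed sharply between single mice. piR-mmu-8362266 had 0 to 14.8 RPM in CTCT (median 1.03) and 0 to 208 in PRCT (median 24.4), with 5 of 9 PRCT mice above every CTCT mouse (log2 fold change 4.01 ± 1.10, SE; edgeR P = 0.00112, adjusted P = 0.999). piR-mmu-11975811 had 0 to 441 in CTCT (median 30.9) and 0 to 21.0 in PRCT (median 2.26), with all 9 PRCT mice below the CTCT median (log2 fold change −4.25; edgeR P = 0.00233, adjusted P = 0.999). piR-mmu-30173798 had 0 to 4.04 in CTCT (median 0.818) and 0 to 72.1 in PRCT (median 1.66), with 4 PRCT mice above every CTCT mouse and the others inside the CTCT range (log2 fold change 3.76; edgeR P = 0.00276, adjusted P = 0.999).

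The abundant piRNAs did not differ beyond their spread. piR-mmu-3744158, the most abundant, had 114 to 3461 RPM in CTCT (median 1111) and 189 to 2712 in PRCT (median 1287), a log2 fold change of 0.07 (edgeR P = 0.894, adjusted P = 0.999). The other 4 most abundant, piR-mmu-2819708, piR-mmu-9033385, piR-mmu-5619027 and piR-mmu-9053627, had log2 fold changes from −0.52 to 0.39 with unadjusted P from 0.516 to 0.817 by edgeR. piR-mmu-2819708 was at 0 in at least 1 mouse of each group and reached 4194 RPM in mouse 47I2.

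Cytosolic tRNA fragments were dominated by a few isoacceptors, the tRNAs of 1 amino acid that share an anticodon. tRNA-Gly-GCC, the fragment linked to low-protein diets in earlier work, had 11161 to 92195 RPM in CTCT (median 45720) and 17855 to 145692 in PRCT (median 71119). The ranges overlapped, with means of 49009 ± 28729 and 67281 ± 42455 and a log2 fold change of 0.46 ± 0.44 (SE; 95% interval −0.48 to 1.39; edgeR P = 0.312, adjusted P = 0.968 over 47 isoacceptors). tRNA-Glu-CTC had 17490 ± 9711 and 24850 ± 14534 (log2 fold change 0.51, 95% interval −0.31 to 1.32; edgeR P = 0.199, adjusted P = 0.918). In the fit of all rows, the log2 fold change of tRNA-Glu-CTC was 0.24 without 59L1 (edgeR P = 0.462) and 0.71 without 02A6 (edgeR P = 0.0424, adjusted P = 0.998). tRNA-Lys-CTT had 6566 ± 3112 and 6088 ± 2447 (log2 fold change −0.11, 95% interval −0.84 to 0.62; edgeR P = 0.755, adjusted P = 0.968). Of the 5 isoacceptors that earlier low-protein work named, 2 were higher (tRNA-Gly-GCC and tRNA-His-GTG) and 3 lower (tRNA-Gly-CCC, tRNA-Gly-TCC and tRNA-Lys-CTT). Their median log2 fold change was −0.11, beside −0.02 over the 47 isoacceptors in the fit of all rows. The low-protein study of tRNA fragments that the paper cites gave the restricted diet after weaning, in FVB/NJ mice. PRCT mice were exposed only before weaning, so the exposures were unlike.

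**Figure D5:**
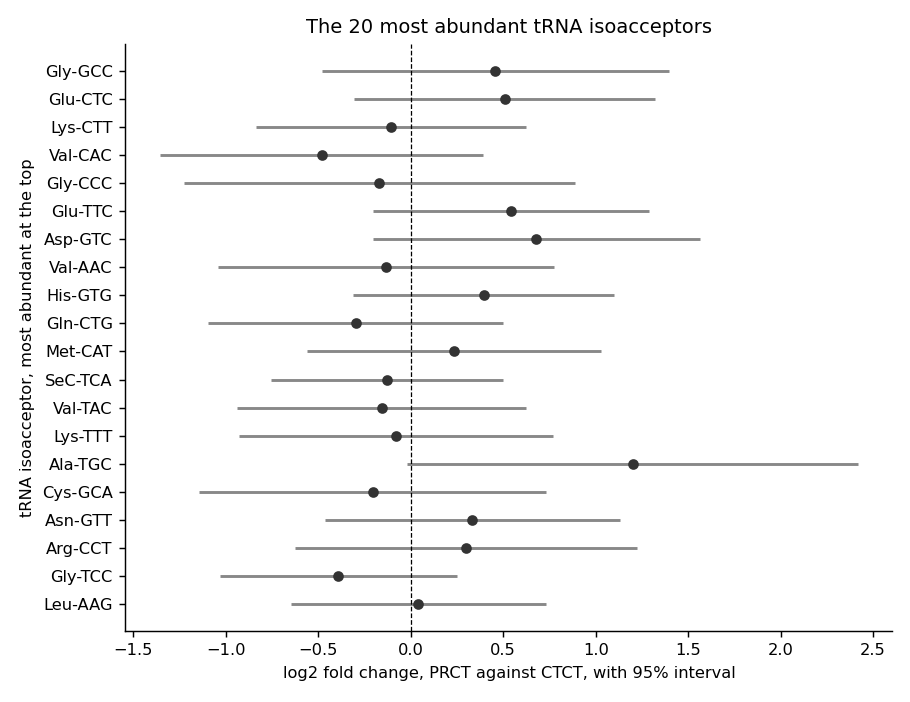
log2 fold change of PRCT against CTCT for the 20 most abundant tRNA isoacceptors (points) with 95% intervals (lines), the most abundant at the top. The intervals, drawn with 17 degrees of freedom, all include 0, and the Ala-TGC value of 1.20 rests on 1 PRCT mouse at 1885 RPM.

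Among the 47 isoacceptors tested on their own, 1 had an unadjusted P under 0.05, 2.13% of those tested. tRNA-Ala-TGC had 19.2 to 334 RPM in CTCT (median 131) and 52.6 to 1885 in PRCT (median 147), a log2 fold change of 1.20 ± 0.58 (SE; 95% interval −0.02 to 2.42; edgeR P = 0.0464, adjusted P = 0.918). The intervals of fold changes use the 17 degrees of freedom of the mice alone, whereas the edgeR test also takes information from other rows, so an interval can include 0 where P is under 0.05. The highest value belonged to PRCT mouse 59L1, and the next highest PRCT mouse had 190 RPM. Without 59L1 the log2 fold change was −0.22 (edgeR P = 0.581, adjusted P = 0.993). The 3′ end of tRNA-Ala-CGC rested on the same mouse, with 56.0 RPM in 59L1 and 4.02 in the next PRCT mouse (log2 fold change 1.62 in the fit of all rows; edgeR P = 0.0623, adjusted P = 0.999). The 5′ end of tRNA-Arg-CCG was the 1 tRNA row with an unadjusted P under 0.05 in the fit of all rows, at 1.55 to 69.5 RPM in CTCT (median 20.7) and 2.79 to 21.2 in PRCT (median 7.91). In 8 of 9 PRCT mice it was below the CTCT median (log2 fold change −1.31, edgeR P = 0.0390, adjusted P = 0.999). Its unadjusted edgeR P ran from 0.0155 to 0.117 when any 1 mouse was left out, and was above 0.05 without 45L3, 47I2, 57P3, 14A4, 08G3, 23F4, 31A3, 39F5 or 59L1.

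As shares of tRNA reads, none of the 7 most abundant isoacceptors had an adjusted P under 0.05 by the exact permutation test. The unadjusted P of tRNA-Val-CAC depended on the scale. tRNA-Gly-GCC made up 47.1 ± 10.2% of tRNA reads in CTCT and 52.2 ± 8.69% in PRCT (exact permutation test, P = 0.264, adjusted P = 0.376 over 7 isoacceptors). tRNA-Val-CAC made up 6.98 ± 3.34% and 4.23 ± 1.82%, a difference of −2.75 points (95% interval −5.40 to −0.260; exact permutation test, P = 0.0293, adjusted P = 0.205). As RPM its log2 fold change was −0.48 (edgeR P = 0.254, adjusted P = 0.918). The names of some isoacceptors were not interchangeable between the table of isoacceptors and that of ends. tRNA-Gly-GCC had a mean of 57664 RPM as an isoacceptor but 5405 as a 5′ end, whereas tRNA-Gly-CCC had 5376 as an isoacceptor and 51105 as a 5′ end. In all 19 mice the 5′ ends named Gly-CCC outnumbered all reads named Gly-CCC, and the same held for tRNA-Val-AAC, with 5994 RPM as a 5′ end and 1953 in all. These pairs were therefore also summed: Gly-GCC and Gly-CCC together had a log2 fold change of 0.40 ± 0.38 (SE; edgeR P = 0.300, adjusted P = 0.999), and Val-AAC and Val-CAC together one of −0.39 ± 0.38 (SE; edgeR P = 0.314, adjusted P = 0.999).

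The part of the tRNA that was recovered did not differ beyond the spread between mice. 5′ ends made up 82.4 to 91.2% of tRNA reads in CTCT (median 85.9%) and 83.3 to 88.0% in PRCT (median 85.8%), a difference in means of −0.409 points (95% interval −2.51 to 1.65; exact permutation test, P = 0.692). 3′ ends made up 0.347 ± 0.0985% and 0.311 ± 0.0642% (exact permutation test, P = 0.373), and ends that carry the CCA tail of the mature tRNA 0.330 ± 0.201% and 0.342 ± 0.153% (exact permutation test, P = 0.880). The remaining reads, from other parts of the tRNA, made up 13.4 ± 2.47% and 13.8 ± 1.53% (exact permutation test, P = 0.662). The adjusted P over these 4 exact permutation tests was 0.880 for each. Among single rows, 23 of 29 3′ ends and 18 of 24 CCA ends were fitted higher in PRCT (median log2 fold changes 0.26 and 0.11), and 28 of 37 5′ ends lower (median −0.20), although the most abundant 5′ ends, those named tRNA-Gly-CCC and tRNA-Glu-CTC, were fitted higher (0.45 and 0.50). With TMM scaling the same counts were 25 of 29, 18 of 24 and 29 of 37.

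The early diet was also compared in the mice that ate the restricted diet after weaning, 10 PRPR and 9 CTPR mice, which the comparison above did not use. Of these, 9 PRPR mice had a PRCT littermate and 8 CTPR mice a CTCT littermate. Mitochondrial tRNA made up 5.56 ± 2.05% in CTPR and 5.07 ± 2.76% in PRPR, a difference of −0.494 points (exact permutation test, P = 0.663), beside the 2.61 points between PRCT and CTCT. Of the 4 groups CTCT had the lowest mean. Between littermates of both later diets (9 litters of restricted and 8 of control dams), the early diet effect on mitochondrial tRNA differed by 2.58 points (exact permutation test over litters, P = 0.0743, adjusted P = 0.354 over 26 classes). Ribozyme RNA made up 0.00149 ± 0.000482% in CTPR and 0.00148 ± 0.000358% in PRPR (exact permutation test, P = 0.990), and its early diet effect differed between littermates by −0.00113 points (exact permutation test over litters, P = 0.0126, adjusted P = 0.170). Of the 26 classes, 3 had an unadjusted P under 0.05 for this littermate difference, 11.5% of those tested, the others being snRNA (−2.17 points) and misc_RNA (−0.596 points), and 0 an adjusted one. In all 3 classes the highest CTCT value belonged to mouse 35F2, with 9.90% snRNA, 4.57% misc_RNA and 0.00586% ribozyme RNA. The classes of this mouse summed to more than its genome-matched total, and the littermate test was not run without it. PRPR and CTPR themselves differed with an unadjusted P under 0.05 in 5 classes, 19.2% of those tested (piRNA −6.26 points, snoRNA 9.02, antisense RNA, scaRNA and the Rfam class of snoRNA), and with an adjusted one in 0 (exact permutation tests).

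Among members, PRPR and CTPR mice differed with an unadjusted P under 0.05 in 372 of 4197 rows by edgeR, 8.86% of those tested. Of these, 13 were higher and 359 lower in PRPR. They came from 1 fit of all 38 mice. The 91 rows between PRCT and CTCT came from a fit of those 19 mice alone. As a class, piRNA took 16.4% of genome-matched reads in CTPR and 10.1% in PRPR. The part of this shift in the 359 lower rows was not tested. The adjusted P between PRPR and CTPR was under 0.05 in 3 rows, 0.0715% of those tested, all piRNAs that were lower in PRPR: piR-mmu-14239525, piR-mmu-3627522 and piR-mmu-51484245 (Benjamini-Hochberg adjusted P = 0.000321, 0.00243 and 0.0186). They were at 0 in 10, 9 and 10 of the 10 PRPR mice, and in 0, 1 and 4 of the 9 CTPR mice. Outside this pair they were also at 0 in 3, 3 and 5 CTCT mice and in 1, 3 and 1 PRCT mice. The edgeR interaction term, which takes the PRCT and CTCT difference against that of PRPR and CTPR, had an unadjusted P under 0.05 in 163 of 4197 rows, 3.88% of those tested. Its adjusted P was under 0.05 in 1 row, 0.0238% of those tested, the piRNA piR-mmu-14239525. That piRNA had 0 to 6.49 RPM in CTCT (median 2.60), 0 to 10.9 in PRCT (median 5.97), 0.949 to 12.3 in CTPR (median 5.63) and 0 in all 10 PRPR mice (edgeR interaction adjusted P = 0.000995). This fit had no term for litter, although 17 litters gave mice to 2 of the groups. With litter as a block, which was added after seeing the data, 111 rows had an unadjusted P under 0.05 and 0 an adjusted one, and piR-mmu-14239525 had an unadjusted edgeR P of 0.000106 and an adjusted P of 0.445.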

How the data were processed

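Small RNA-seq libraries of sperm from 38 mice were deposited as 1 table per mouse. The authors ran the SPORTS pipeline, which matched reads to the mm10 genome and to RNA databases, and deposited read counts, not normalised, per class and per member. The database versions are not given in the sources used here. The rows of genome-matched reads were used and divided by the genome-matched total of each mouse. Groups followed the study's mouse list. PRCT and CTCT mice came from separate litters, whereas tests that include CTPR and PRPR mice hold littermates.

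Classes with a mean of at least 10 RPM (reads per 1000000 genome-matched reads) and tRNA ends (as a percent of isoacceptor reads) were compared by two-sided exact permutation tests, whose inversion gave the 95% intervals (Python 3.11.15, numpy 2.4.6, pandas 2.3.3). Members were tested with glmQLFit and glmQLFTest of edgeR 4.0.16 in R 4.3.3, with genome-matched reads as library size and no other scaling, a minimum of 10 reads in 9 of 19 mice, and Benjamini-Hochberg adjustment over all 4197 rows. Isoacceptors were also fitted alone. Alternatives used DESeq2 1.42.0 and limma 3.58.1 (pseudocount 1), TMM, other filters, the grouping of the sample labels, and left-out mice. Chosen after seeing the data were the tRNA sum over isoacceptors, summed miRNA copies and summed tRNA names, shares of tRNA reads, the littermate comparison, the litter block, and leaving out 35F2, 31A3 or 59L1. The scripts were tested on simulated data with 200 of 4197 rows changed. They recovered 0% of the rows changed by a log2 fold change of 1, 15.5% at 2 and 82% at 4. Changes of a log2 fold change of 2 or less were thus mostly missed there. With no row changed, 2 rows were still called, and 6.79% of rows had an unadjusted edgeR P under 0.05. Between PRCT and CTCT mice that share was 2.17%, so the simulated data were unlike the real data in this respect. The recovery rates may therefore not carry over to the mice.

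Named members are the 5 most abundant and the 3 with the smallest P among miRNAs, piRNAs and tRNA rows, isoacceptors and classes with an unadjusted P under 0.05, the 5 largest classes, and the most abundant member of each of 14 groups. The piRNAs of the PRPR comparison and other classes were named after their values were seen. Members and groups were chosen with earlier results of these data known. Depth was 4465281 to 7612603 genome-matched reads per mouse. PCR reads are not independent molecules.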

Additional observations from a re-analysis of the deposited data

Results flagged for a closer look

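Some values stood apart from the other mice of their group, by Dixon's gap test. Of 106 groups of values tested, 20 held such a mouse. The test's rate of about 1 in 20 holds for independent, normally distributed values. Percents and RPM were used here without transformation, and some rows share reads, so the 20 cannot be set against that rate. Among classes, CTCT mouse 02A6 had 27.4% of reads in Rfam DNA, 16.1% in lincRNA and 2.89% in Rfam rRNA. CTCT mouse 35F2 had 18.9% unannotated reads, 9.90% snRNA and 0.143% mitochondrial DNA. PRCT mouse 08G3 had 30.3% in Rfam DNA, 4.05% in Rfam rRNA and 0.0721% mitochondrial DNA. CCA ends made up 0.695% of the tRNA reads of PRCT mouse 23F4.

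Among members, PRCT mouse 59L1 had 1885 RPM of tRNA-Ala-TGC, 58211 of tRNA-Glu-CTC, 53292 of its 5′ end tRNA-Glu-CTC_5_end and 56.0 of tRNA-Ala-CGC_3_end. CTCT mouse 47I2 had 44.4 RPM of mmu-mir-451a, 1734 of mmu-mir-21a and 4194 of piR-mmu-2819708. piR-mmu-8362266 stood at 14.8 in CTCT mouse 53M1 and at 208 in PRCT mouse 39F5, and piR-mmu-11975811 at 21.0 in PRCT mouse 40H1.

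For piR-mmu-14239525 the early diet effect differed with the later diet, with a fitted edgeR interaction of 9.14 on the log2 scale. As all 10 PRPR mice were at 0, this size depends on the small count that the fit adds and is not a bound. With litter as a block its adjusted P was 0.445.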

How the results depend on the processing

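The difference in mitochondrial tRNA kept its direction and an unadjusted P under 0.05 in all 30 alternatives, from 2.24 to 2.91 points without any 1 mouse, 2.41 points with 47I1 in place of 47I2 and 1.03 on the log2 scale. These settings overlap: leaving out litter 47I, 02A6, 35F2 or 31A3 repeats a test without 1 mouse. The total of the study's mouse list, the tRNA sum over isoacceptors and dropping the class filter did not change the unadjusted P of mitochondrial tRNA. The adjusted P of mitochondrial tRNA was under 0.05 in 9 of the 30, with the test without 31A3 counted again. The number of classes with an adjusted P under 0.05 was 0, but 2 when snoRNA reads were left out of the total, 1 without mouse 31A3 (chosen after seeing the data) and 0 to 2 without any 1 mouse, 2 without 07C3, 09H7, 53M1 or 49K1 and 1 without 45L3, 23F4 or 31A3. The number with an unadjusted one was 2, and 2 to 5 without any 1 mouse, 5 without 49K1 and 4 without 53M1. Mitochondrial DNA differed by 0.0161 points without 35F2 and by 0.00366 points with it. The share of 5′ ends differed by −0.802 to 0.175 points without any 1 mouse, with no call.

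The 91 members with an unadjusted P under 0.05 became 65 to 126 without any 1 mouse, 33 with edgeR's legacy method, 148 with DESeq2 and 22 with at least 10 reads in all 19 mice (512 tested). The 0 members with an adjusted P under 0.05 by edgeR stayed at 0 in all alternatives except with no filter beyond 1 read, where 356026 rows gave 311, and 9855 with an unadjusted one. The cause was not tested. For isoacceptors the 1 unadjusted call became 0 with the labels' grouping, 0 without 02A6, 0 without 35F2, 31A3 and 07C3, 0 with the legacy method and 0 with DESeq2, 4 with TMM, 3 with each end as its own row and 0 to 2 without any 1 mouse. The 1 member with an adjusted interaction P under 0.05 became 0 with litter as a block and stayed 1 in the other 4 alternatives. No paired analysis was possible because the 19 PRCT and CTCT mice came from 19 litters and the replicate numbers only name mice.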
